A study of Mus musculus with 8 samples.

Results

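The genes described here build the nuclear pore and carry cargo through it. They were chosen by symbol alone: pore proteins (Nup, including Nupl), importins (Kpna, Kpnb, Ipo and Tnpo) and exportins (Xpo), each followed by a number or letter as the family names run. The rule found 45 genes among the 37224 genes of the count table, which were 23 pore genes, 17 importins and 5 exportins, and left out 1 processed pseudogene. Of the 45, 40 passed the filter on low counts and were tested, among 11066 tested genes in all.

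Nuclear pores are channels of stacked rings through the nuclear envelope. An outer and an inner ring form the scaffold, proteins rich in phenylalanine and glycine repeats fill the central channel, and filaments and a basket reach into the cytoplasm and the nucleus. Importin alpha adaptors bind classical import signals and travel with importin beta, other members of the importin beta family carry their own cargo, and exportins take cargo out. The small GTPase Ran sets the direction of travel by releasing import cargo on the nuclear side. In a mouse oocyte waiting at metaphase II of meiosis (an MII oocyte) the nuclear envelope has broken down, and transcription is silent, so the mRNAs measured are the oocyte's store.

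The libraries were made from single MII oocytes of superovulated mice, 4 oocytes from conditional Setd1b knockout mice (Setd1bGdf9cKO) and 4 from control mice. Setd1b is a histone methyltransferase that acts on lysine 4 of histone H3 (H3K4). The name of the knockout refers to Gdf9, a gene expressed in growing oocytes, and ages, strains and the alleles the control mice carried were not given in the sources used here. The comparison addresses how the mature oocyte's transcripts differ when Setd1b is removed from the germ cell.

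The knockout libraries held 9488899 to 11313502 counts and the control libraries 11029602 to 13519404, and the pore and transport genes took 0.522% to 0.543% of the counts in knockout and 0.497% to 0.596% in control libraries. Setd1b itself had 4.42, 5.05, 2.96 and 3.54 CPM (counts scaled to a common library size by total and composition) in knockout libraries, against 10.7, 12.8, 9.22 and 10.9 CPM in control libraries, and the groups did not overlap. Wherever 4 values are given for a group, they are those of replicates 1 to 4 in order. The log2 fold change of Setd1b was -1.44 ± 0.41 (SE, n = 4 per group, adjusted p = 0.0221 in edgeR's quasi-likelihood test). The call held in 10 of 15 alternatives. Among those in which it was lost were scaling by library totals alone (adjusted p = 0.0887) and a threshold of 0.01. It was also lost without knockout replicate 3 (0.0519) and without control replicate 2 (0.054). All 10 oocyte markers passed the filter, and 6 of them were called by edgeR: Zp1, Zp2 (825 ± 431 CPM in knockout, against 101 ± 44.1 CPM in control libraries; SD, n = 4 each), Zp3 and Nlrp5 were higher and Oosp1 and Ooep lower. Of 12 cumulus and granulosa cell markers, Amh, Amhr2, Foxl2, Inha, Ptx3, Tnfaip6 and Cd44 had no count in any library and only Cyp19a1, at 49.2 ± 19.7 CPM in knockout, against 88.6 ± 15.0 CPM in control libraries (SD, n = 4 each; called lower, adjusted p = 0.0367 in edgeR), and Nr5a2 passed the filter. More genes reached 10 counts in knockout libraries (11190 to 12153) than in control libraries (9913 to 10714), and the part of these differences in the results below was not tested.

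Of the 40 tested genes, 2 rose and 6 fell in the knockout (adjusted p under 0.05), against 25.8% of all tested genes called in either direction, 13.6% higher and 12.2% lower. The called share of the 40 was 20%. With DESeq2 it was 11 of 43 tested, 2 higher and 9 lower, beside 2148 higher and 1834 lower of the 13569 genes it tested. Neither share is read as a result about these genes. In 8 of the 40 no knockout library overlapped a control library, 2 with knockout above and 6 below, against 31.3% of all tested genes. An unadjusted p under 0.05 was reached by 14 of the 40, against 4199 of all 11066 tested genes. The median log2 fold change of the 40 was -0.01, beside 0.10 for all tested genes. The genes that fell were Ipo8, Tnpo1 and Kpna3 among the importins and Nup35, Nup153 and Nup62 in the pore. The genes that rose, Ipo9 and Kpna2, are both importins, and none of the 5 exportins was called by edgeR or DESeq2, with 0 of 5 at an unadjusted p under 0.05.

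The scale on which a fold change is read matters for these genes. With TMM scaling, which corrects for composition, the median of all tested genes was 0.10. With library totals as the only scaling it was 0.49, and with the trend on gene length taken out of each library it was -0.22. The fitted trend was not centred, so each library's mean level over genes was taken out with it. Values and counts under that setting mix this rescaling with gene length. With totals only, 26.1% of all tested genes were called, 21.5% higher and 4.61% lower, and the pore and transport genes split into 6 higher and 1 lower. With the length trend removed, 30.4% were called, 9.29% higher and 21.1% lower, and the split was 1 higher and 11 lower. Leaving out 1 library gave 1 to 3 higher and 3 to 7 lower, with the fewest lower, 3, without knockout replicate 2. A single gene was higher without any 1 of the 4 knockout libraries or without control replicate 3, and 3 were higher without control replicate 4. Measured from the median of all tested genes, the 6 genes that fell lay at -1.05 (Ipo8), -0.89 (Tnpo1), -0.86 (Nup35), -0.69 (Nup62), -0.67 (Nup153) and -0.62 (Kpna3) with TMM scaling. With totals only the same differences were -1.06, -0.89, -0.86, -0.69, -0.66 and -0.62 in that order. With the length trend removed they were -0.73, -0.64, -0.94, -0.83, -0.53 and -0.62. Ipo9 lay 1.11 and Kpna2 0.98 above the median with TMM scaling, 1.10 and 1.00 above it with totals only, and 1.36 and 0.84 above it with the length trend removed.

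**Figure D1:**
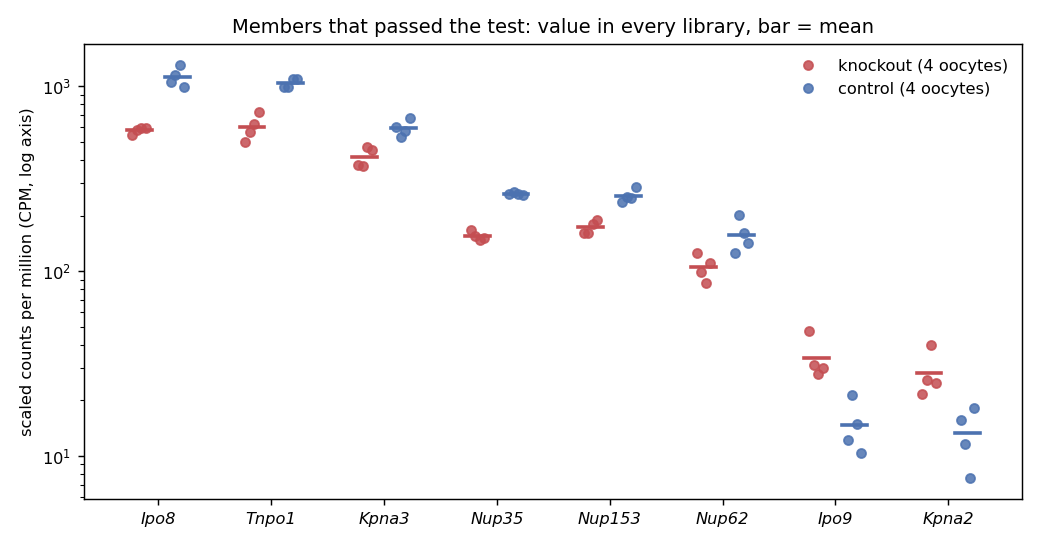
Scaled CPM on a log axis for the 8 pore and transport genes that passed the test, with knockout oocytes left and control oocytes right of each pair, 1 point per library and the bar at the mean. Knockout points lie below all control points for the 6 genes that fell, by the least for Nup62 (125.0 against 125.5 CPM), and above them for Ipo9 and Kpna2.

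Ipo8 and Tnpo1 were the most abundant of the called genes in CPM, and both fell. Their RefSeq promoter windows are given with those of Ipo9 and Kpna2, the genes that rose, so that the starts of genes that moved in opposite directions can be read side by side; these 4 were chosen after their values were seen. Each window is 300 bases long around the gene's start, in GRCm38.p6 (mm10), read 5′ to 3′ on the gene's strand, with every CG in capitals, since CG-rich starts are where methylation of lysine 4 on histone H3 is usually found. The windows lie on the minus strand at chr6:148831418-148831717 (Ipo8), chr13:98926335-98926634 (Tnpo1), chr1:135430450-135430749 (Ipo9) and chr11:106999476-106999775 (Kpna2).
Ipo8: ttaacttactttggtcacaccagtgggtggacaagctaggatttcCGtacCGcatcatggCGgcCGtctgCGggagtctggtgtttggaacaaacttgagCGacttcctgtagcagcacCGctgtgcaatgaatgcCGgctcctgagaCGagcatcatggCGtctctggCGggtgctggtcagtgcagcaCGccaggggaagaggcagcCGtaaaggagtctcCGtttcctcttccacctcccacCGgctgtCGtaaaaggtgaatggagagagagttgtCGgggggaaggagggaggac
Tnpo1: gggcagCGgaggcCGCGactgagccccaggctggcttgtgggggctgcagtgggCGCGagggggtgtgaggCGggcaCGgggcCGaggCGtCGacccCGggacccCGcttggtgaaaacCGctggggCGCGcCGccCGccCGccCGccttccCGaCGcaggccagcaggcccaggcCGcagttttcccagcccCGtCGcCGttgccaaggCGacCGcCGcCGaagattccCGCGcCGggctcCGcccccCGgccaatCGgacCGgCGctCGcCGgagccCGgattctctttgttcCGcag
Ipo9: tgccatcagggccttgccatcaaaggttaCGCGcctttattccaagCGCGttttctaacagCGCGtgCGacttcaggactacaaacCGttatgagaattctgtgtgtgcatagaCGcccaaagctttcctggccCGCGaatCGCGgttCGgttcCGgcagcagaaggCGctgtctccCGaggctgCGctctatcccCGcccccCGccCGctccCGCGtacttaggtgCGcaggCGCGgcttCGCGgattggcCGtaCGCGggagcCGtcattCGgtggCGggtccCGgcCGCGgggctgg
Kpna2: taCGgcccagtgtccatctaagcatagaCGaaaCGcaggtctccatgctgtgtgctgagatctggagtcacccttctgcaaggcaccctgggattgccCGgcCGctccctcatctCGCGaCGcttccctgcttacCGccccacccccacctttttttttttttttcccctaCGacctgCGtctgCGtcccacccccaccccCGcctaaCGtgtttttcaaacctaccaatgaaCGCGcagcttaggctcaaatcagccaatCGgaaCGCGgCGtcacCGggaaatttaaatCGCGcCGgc
The Ipo8 window held 17 CG, that of Tnpo1 41, that of Ipo9 37 and that of Kpna2 24, so the 2 genes that fell bracket the 2 that rose. RefSeq had windows for 36 of the 45 genes, with a median of 27.5 CG (range 4 to 47), beside a median of 7 (quartiles 3 and 20) over all 32851 windows. Of all windows, 94.57% held at least 1 CG, a motif that reads the same on both strands. For Tnpo1 and Ipo9 the table held 2 windows each and the one at the deposited gene's 5′ end is shown. Nup160 with 6 and Kpna7 with 4 had the fewest, but the Kpna7 window starts from a gene start 74394 bases from the 5′ end of the gene model that was counted.

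Among the 21 tested pore genes, 3 fell and none rose by edgeR, beside 12.2% lower and 13.6% higher among all tested genes. At an unadjusted p under 0.05 there were 6, against 4199 of all 11066 tested genes. DESeq2 called 6 lower and none higher, beside 1834 lower and 2148 higher of the 13569 genes it tested. With totals only none was lower and 2, Nup43 and Nup160, were higher, beside 4.61% and 21.5% of all tested genes. The 21 pore genes had a median log2 fold change of -0.12, or 0.22 below the median of all tested genes. The 3 that fell sit in different parts of the pore: 1 of 5 in the inner ring, 1 of 3 in the central channel and 1 of 2 at the nuclear basket. None of the 7 outer ring genes, the 3 at the cytoplasmic side or the 1 tested membrane ring gene was called by edgeR, with 1, 2 and 0 of them at an unadjusted p under 0.05, while DESeq2 called 1, 2 and 0.

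Nup35, an inner ring protein that anchors the ring to the pore membrane (chromosome 2, 80617236 to 80658906, mm10), had 167, 154, 148 and 151 CPM in knockout libraries, against 263, 270, 261 and 258 CPM in control libraries. Every knockout library lay well below every control library, and the spread within each group was small. It averaged 155 ± 7.99 CPM in knockout, against 263 ± 4.85 CPM in control oocytes (SD, n = 4 each), a log2 fold change of -0.76 ± 0.14 (SE, edgeR's adjusted p = 0.002708). With totals only it was -0.37 (adjusted p = 0.0913), and no other setting ended the call. Of the 75-base stretches of its transcripts, 34.7% also occur in other genes and 33.8% in Gm4353, which was counted at 73.8 ± 9.33 CPM in knockout, against 118 ± 7.26 CPM in control oocytes (log2 fold change -0.67, adjusted p = 0.01429 in edgeR). The sum of both was 229 ± 15.1 CPM in knockout, against 381 ± 8.84 CPM in control oocytes, so both counts and their sum were lower in knockout. How reads from the shared stretches were assigned was not tested.

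Nup153, a basket protein with phenylalanine and glycine repeats that docks import complexes (chromosome 13, 46679902 to 46727849), had 160, 161, 181 and 189 CPM in knockout, against 237, 253, 248 and 285 CPM in control libraries. The highest knockout library was still below the lowest control library. The means were 173 ± 14.4 CPM in knockout, against 256 ± 20.6 CPM in control oocytes (SD, n = 4 each; log2 fold change -0.56 ± 0.15 SE, adjusted p = 0.01671 in edgeR). It did not pass without knockout replicate 1 (adjusted p = 0.0549), without knockout replicate 2 (0.0611) or with totals only (0.392). Nup50, its partner at the basket and a factor that releases importin alpha from its cargo, had 90.0 to 178 CPM in knockout, against 91.0 to 196 CPM in control libraries, and its groups overlapped (log2 fold change -0.30 ± 0.27).

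Nup62, the channel protein to which import receptors bind on their way through (chromosome 7, 44816088 to 44830809), had 125.0, 98.5, 86.2 and 111 CPM in knockout, against 125.5, 202, 161 and 142 CPM in control libraries. Knockout replicate 1 and control replicate 1 nearly met. The log2 fold change was -0.59 ± 0.20 (SE, n = 4 per group; adjusted p = 0.04676 in edgeR), the weakest of the calls: it kept its side of the threshold in 5 of 16 alternatives, and the adjusted p was from 0.0566 to 0.131 without any 1 of the 4 knockout libraries or without control replicate 2 or 3. With totals only the log2 fold change was -0.20 (adjusted p = 0.552). The other channel genes were not called. Nup54 had 133 to 247 CPM in knockout, against 174 to 271 CPM in control libraries, and Nupl1 had 32.1 to 40.6 CPM in knockout, against 27.1 to 74.3 CPM in control libraries, with overlap in both.

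Several pore genes lay close to the threshold without passing it. Nup98, whose product is cut into a repeat protein and an outer ring subunit, had 62.1, 55.8, 113 and 86.9 CPM in knockout, against 138, 107, 116 and 142 CPM in control libraries. Knockout replicate 3 overlapped the control libraries. The log2 fold change was -0.66 ± 0.24 (SE; adjusted p = 0.05967 in edgeR) and -0.89 without that library (adjusted p = 0.0188). With the length trend removed it was -0.99 (adjusted p = 0.01885), and it kept its side of the threshold in 13 of 16 alternatives. Nup214, at the cytoplasmic side where mRNA leaves the channel, averaged 115 ± 28.6 CPM in knockout, against 170 ± 28.3 CPM in control oocytes (SD, n = 4 each; log2 fold change -0.56, adjusted p = 0.06804 in edgeR). It passed without knockout replicate 1 (adjusted p = 0.0325), without control replicate 4 (0.0381) and with DESeq2 (0.0235). It also passed with median-of-ratios factors (0.04872) and with the length trend removed (0.03656). Nup88, also at the cytoplasmic side, averaged 146 ± 20.5 CPM in knockout, against 204 ± 44.2 CPM in control oocytes (SD, n = 4 each). Its libraries overlapped, and its log2 fold change was -0.48 (adjusted p = 0.0892 in edgeR).

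The outer ring genes were spread on both sides of 0. Nup37, the pore gene with the highest level per length, had 163 ± 42.5 CPM per kilobase in knockout and 234 ± 70.0 CPM per kilobase in control oocytes (SD, n = 4 each), and its libraries overlapped (log2 fold change -0.52 ± 0.24, adjusted p = 0.141 in edgeR). With the length trend removed it was -1.08 (adjusted p = 0.00465); at 1362 bases it is the shortest of the 45. Nup85 and Nup107, scaffold subunits, had log2 fold changes of -0.03 (95% interval -0.36 to 0.29) and -0.14 (-0.55 to 0.27). Nup43, another outer ring subunit, had 70.4 to 130 CPM in knockout, against 47.4 to 105 CPM in control libraries (log2 fold change 0.52 ± 0.29). Nup160 had 116 to 175 CPM in knockout, against 94.9 to 160 CPM in control libraries (0.32 ± 0.21), and Nup133, at 4.47 to 7.5 CPM in knockout, against 1.15 to 5.80 CPM in control libraries, was scarce in both groups.

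The other inner ring genes were not called. Nup93, which ties the ring together, averaged 124 ± 10.2 CPM in knockout, against 121 ± 23.2 CPM in control oocytes (SD, n = 4 each; log2 fold change 0.03, 95% interval -0.37 to 0.42). The large scaffold genes Nup188, Nup205 and Nup155 had log2 fold changes of 0.36, 0.54 and 0.60 with adjusted p-values from 0.228 to 0.303 in edgeR, and each overlapped between groups. In the membrane ring, Nup210 had 5.25, 7.31, 9.34 and 9.77 CPM in knockout, against 1.65, 5.35, 0.577 and 0 CPM in control libraries. Control replicate 2 stood above the lowest knockout library, and the log2 fold change of 2.05 ± 0.96 did not pass (adjusted p = 0.14 in edgeR, or 0.0302 at 3.41 without that library). The scarce relatives Nup210l (7, 4, 0 and 0 counts in knockout and 0, 2, 0 and 0 in control libraries) and Nup62cl (99 counts in knockout replicate 2 and none in the other 7 libraries) were not tested.

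**Figure D2:**
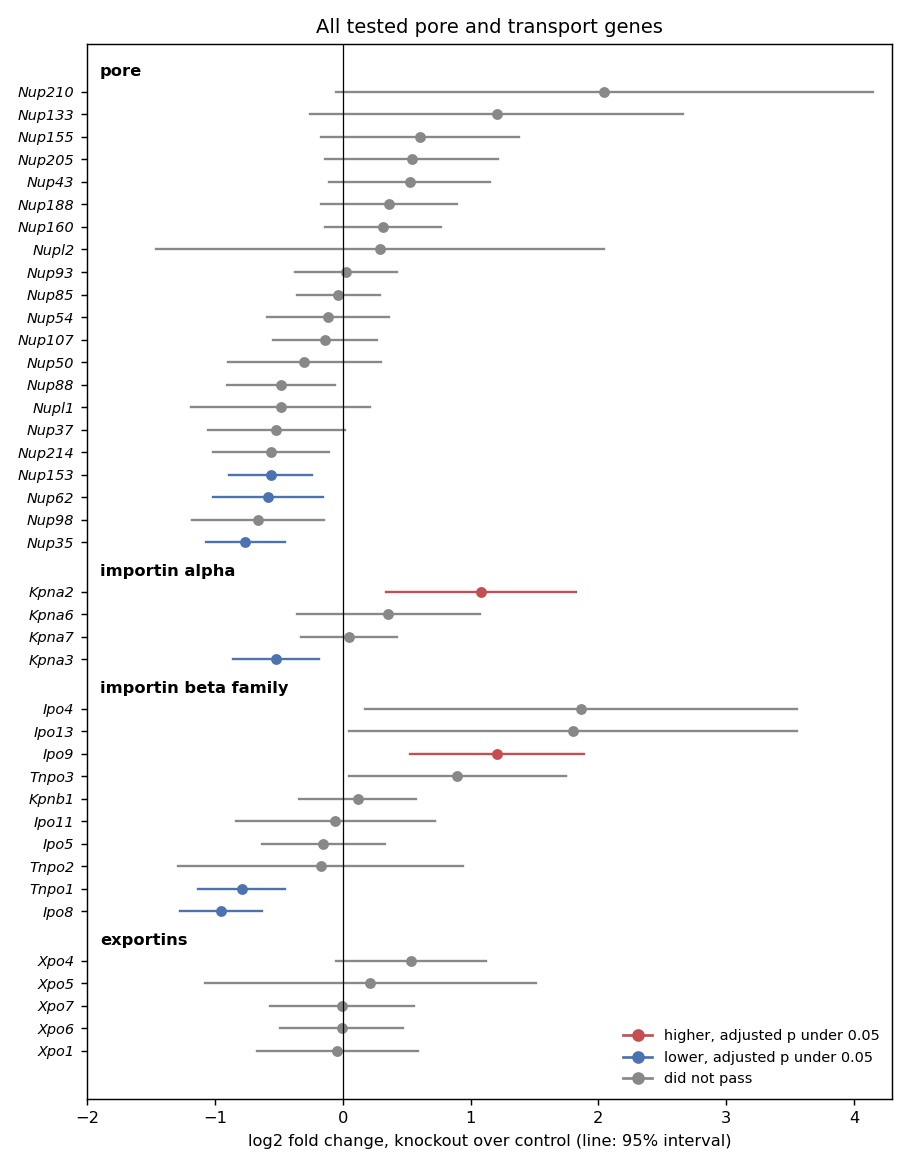
Log2 fold changes (knockout over control) of the 40 tested genes with their 95% intervals from edgeR's quasi-likelihood test, sorted within pore, importin alpha, importin beta family and exportins, red for genes that rose, blue for genes that fell and grey for genes that did not pass. The called genes lie between -0.95 for Ipo8 and 1.21 for Ipo9, and the widest intervals belong to scarce genes such as Nup210 and Ipo4.

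Of the 4 tested importin alpha adaptors, 1 fell and 1 rose. Kpna3, which binds classical import signals (chromosome 14, 61365186 to 61439947), had 374, 370, 469 and 451 CPM in knockout, against 602, 533, 575 and 674 CPM in control libraries, with no overlap. It averaged 416 ± 51.4 CPM in knockout, against 596 ± 59.3 CPM in control oocytes (SD, n = 4 each; log2 fold change -0.52 ± 0.15 SE, adjusted p = 0.02821 in edgeR). The call was lost with totals only (log2 fold change -0.13, adjusted p = 0.503), with a minimum of 10 CPM in 4 libraries (-0.39, adjusted p = 0.0569) and without knockout replicate 1 or 2 or control replicate 1 or 4 (adjusted p from 0.0533 to 0.0966).

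Kpna2, another importin alpha adaptor (chromosome 11, 106988629 to 106999541), rose. It had 21.7, 25.7, 39.8 and 24.7 CPM in knockout, against 15.6, 11.6, 7.58 and 18.2 CPM in control libraries, and the lowest knockout library was above the highest control library. The means were 28.0 ± 8.06 CPM in knockout, against 13.2 ± 4.65 CPM in control oocytes (SD, n = 4 each), a log2 fold change of 1.08 ± 0.34 (SE, edgeR's adjusted p = 0.0368). It missed the threshold without knockout replicate 2, 3 or 4 or control replicate 2 or 3 (adjusted p from 0.0584 to 0.114), and with the length trend removed (log2 fold change 0.61, adjusted p = 0.232). The count of Kpna2 is uncertain, because 59.5% of its 75-base stretches also occur elsewhere and 58.9% in Gm10184. That copy was counted at 5.39 ± 1.84 CPM in knockout, against 5.38 ± 2.21 CPM in control oocytes, and the sum of both genes was 33.4 ± 9.71 CPM in knockout, against 18.6 ± 6.85 CPM in control oocytes.

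Kpna7, an importin alpha that mouse oocytes and early embryos use, had 292, 267, 263 and 206 CPM in knockout, against 199, 281, 263 and 250 CPM in control libraries. The groups overlapped throughout, with a log2 fold change of 0.05 ± 0.17 (95% interval -0.32 to 0.43). Kpna6 had 30.2 to 50.7 CPM in knockout, against 15.5 to 45.2 CPM in control libraries, also with overlap. Kpna1, with 9, 0, 19 and 0 counts in knockout and none in control libraries, and Kpna4, with 26, 2, 2 and 1 counts in knockout and 0, 0, 4 and 0 in control libraries, were under the filter.

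Per kilobase of gene length the adaptors can be set against each other. Their summed level was 198 ± 12.5 CPM per kilobase in knockout and 231 ± 13.4 CPM per kilobase in control oocytes (SD, n = 4 each). Kpna3 held 45.3%, 47.3%, 52.3% and 57.1% of it in knockout libraries, against 66.3%, 56.1%, 60.1% and 64.7% in control libraries. Kpna7 held 47.0%, 45.4%, 39.0% and 34.6% in knockout and 29.1%, 39.2%, 36.6% and 31.8% in control libraries. The Kpna3 shares overlapped in 1 knockout library, and in knockout replicate 1 Kpna7 stood above Kpna3. Kpna2 held 4.89 ± 1.11% in knockout and 1.99 ± 0.660% in control oocytes. These shares describe composition within a library, do not depend on its scaling, and were not tested.

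Of the 10 tested genes of the importin beta family, the most abundant pair, Ipo8 and Tnpo1, fell and Ipo9 rose, while importin beta itself was not called. Ipo8, which in human cells imports the signal recognition particle protein SRP19, Smad proteins and Argonaute proteins (chromosome 6, 148770683 to 148831467), had 548, 585, 598 and 598 CPM in knockout, against 1052, 1147, 1311 and 990.1 CPM in control libraries. The groups lay far apart, and the knockout libraries were close to each other. It averaged 582 ± 23.7 CPM in knockout, against 1125 ± 140 CPM in control oocytes (SD, n = 4 each), a log2 fold change of -0.95 ± 0.15 (SE; 95% interval -1.27 to -0.63; adjusted p = 0.000992 in edgeR). Among the 45 genes this was the only call that held in all 16 alternatives, with -0.57 (adjusted p = 0.0198) for totals only.

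Tnpo1, or transportin, which imports RNA-binding proteins such as hnRNP proteins (chromosome 13, 98839019 to 98926384), had 502, 566, 627 and 723 CPM in knockout, against 996, 988, 1092 and 1101 CPM in control libraries. The highest knockout library was below the lowest control library. The means were 604 ± 94.1 CPM in knockout, against 1044 ± 60.2 CPM in control oocytes (SD, n = 4 each; log2 fold change -0.79 ± 0.16 SE, adjusted p = 0.003902 in edgeR). It missed the threshold with totals only (-0.40, adjusted p = 0.0558) and under no other setting. Its relatives differed from it in level: Tnpo2 had 4.13 to 5.85 CPM in knockout, against 2.40 to 8.40 CPM in control libraries. Tnpo3, which carries splicing factors with serine and arginine repeats, had 10.05 to 15.9 CPM in knockout, against 4.61 to 11 CPM in control libraries (log2 fold change 0.89 ± 0.39, adjusted p = 0.114 in edgeR).

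Ipo9, a carrier of histones H2A and H2B and of actin (chromosome 1, 135382312 to 135430499), rose. It had 47.7, 31.0, 27.7 and 29.8 CPM in knockout, against 12.2, 21.4, 14.9 and 10.4 CPM in control libraries, and the groups did not overlap. The means were 34.1 ± 9.19 CPM in knockout, against 14.7 ± 4.82 CPM in control oocytes (SD, n = 4 each), a log2 fold change of 1.21 ± 0.31 (SE, edgeR's adjusted p = 0.01473). Knockout replicate 1 stood high in its group, and without it the log2 fold change was 1.01 (adjusted p = 0.0589).

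Kpnb1, importin beta itself, had 101, 121, 107 and 103 CPM in knockout, against 75.9, 131, 114 and 77.4 CPM in control libraries. The knockout values lay inside the control range, and the log2 fold change was 0.12 (95% interval -0.34 to 0.58). Ipo5, a carrier of ribosomal proteins and histones, and Ipo11 had log2 fold changes of -0.15 and -0.06 with overlapping groups. Ipo4 and Ipo13 were scarce, with 300.0 and 123 counts over the knockout libraries and 71 and 33 over the control libraries. Their log2 fold changes of 1.87 ± 0.78 and 1.80 ± 0.80 did not pass (adjusted p = 0.0981 and 0.121 in edgeR). Ipo7, the closest relative of Ipo8, had only 2, 5, 9 and 38 counts in knockout and 13, 54, 9 and 0 counts in control libraries and was not tested.

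**Figure D3:**
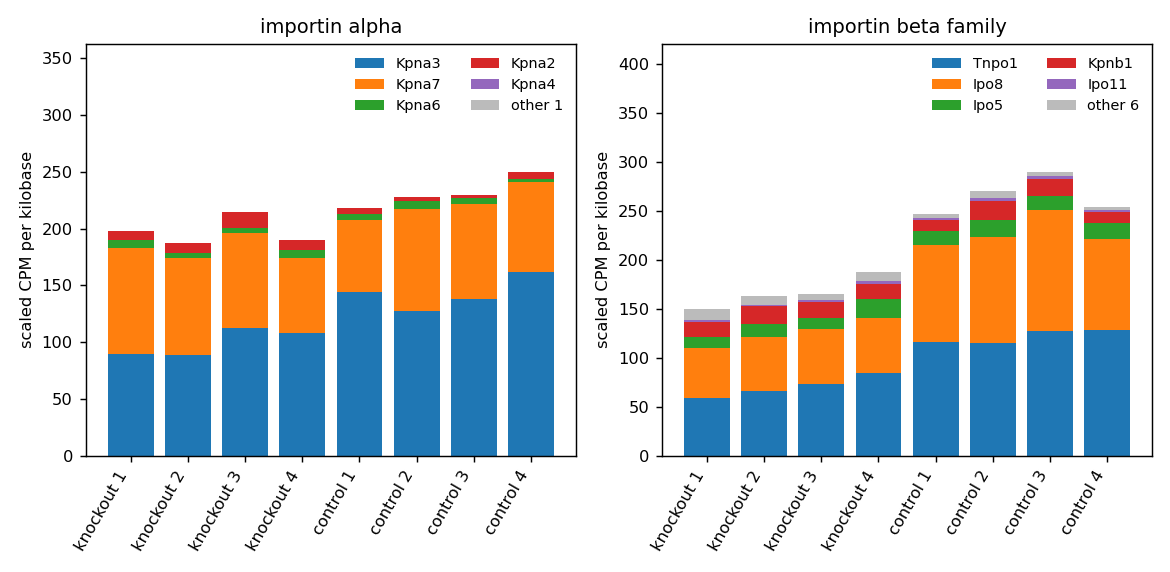
Stacked scaled CPM per kilobase of gene length in each library, knockout replicates 1 to 4 left and control replicates 1 to 4 right, for the importin alpha adaptors and the importin beta family. Tnpo1 and Ipo8 make up most of every importin beta bar, and all 4 knockout bars (150 to 187) are shorter than the control bars (247 to 290).

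Summed per kilobase, the importin beta family stood at 166 ± 15.6 CPM per kilobase in knockout and 265 ± 19.1 CPM per kilobase in control oocytes (SD, n = 4 each). Ipo8 made up 33.1 ± 2.05% of this sum in knockout and 39.9 ± 2.41% in control oocytes, and Tnpo1 made up 42.2 ± 2.84% in knockout and 46.1 ± 3.54% in control oocytes. Kpnb1 held 9.91 ± 1.2% in knockout and 5.65 ± 1.29% in control oocytes, and its shares did not overlap between groups. Neither did those of Ipo5, Ipo9, Ipo13 and Tnpo3, also higher in knockout, or of Ipo8, lower in knockout. A share moves when other members of the sum move, and the CPM of Kpnb1 overlapped between groups. The pore sum was 656 ± 64.2 CPM per kilobase in knockout and 815 ± 77.3 CPM per kilobase in control oocytes. With totals only, the log2 ratio of the means was 0.08 for the pore in place of -0.31, 0.16 for importin alpha in place of -0.23, and -0.29 for the importin beta family in place of -0.67. The sums rest on members that were also tested singly, and they carry no test.

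No exportin passed the test. Xpo1, the main exportin for proteins with leucine-rich export signals and the exportin with the highest level per length, had 98.7, 96.7, 107 and 111 CPM in knockout, against 111, 63.2, 73.3 and 178 CPM in control libraries. The control libraries enclosed the knockout libraries. The log2 fold change was -0.04 ± 0.29 (SE; 95% interval -0.67 to 0.59) and 0.32 without control replicate 4. Xpo4, which exports Smad3, had the smallest p of the 5, with 35.4 to 56.7 CPM in knockout, against 23.2 to 45.9 CPM in control libraries (log2 fold change 0.53 ± 0.27, adjusted p = 0.17 in edgeR, or 0.90 and 0.0454 with totals only). Xpo5, the exportin of microRNA precursors, had 2.77 to 4.85 CPM in knockout, against 1.76 to 5.35 CPM in control libraries. Xpo6, which exports actin, and Xpo7 had log2 fold changes of -0.01 each, with 95% intervals of -0.49 to 0.47 and -0.57 to 0.56. The exportin sum was 33.1 ± 2.25 CPM per kilobase in knockout and 31.4 ± 4.61 CPM per kilobase in control oocytes, with TMM scaling. All 5 exportins had positive log2 fold changes with totals only, beside 7698 of all 11066 tested genes. Their median was then 0.39, beside 0.49 for all tested genes, and 1 was called higher, beside 21.5% of all tested genes.

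Abundant genes were lower in knockout oocytes more often than scarce ones, among these genes as among all genes tested. With TMM scaling, of 19 pore and transport genes that averaged 100 CPM or more, 6 fell and none rose, with a median log2 fold change of -0.48. Among all 1951 tested genes at that level, 41.1% fell and 8.61% rose, with a median of -0.46. Of the 21 genes under 100 CPM, 2 rose and none fell, with a median of 0.52, against 14.6% higher, 5.99% lower and a median of 0.27 for all 9115 such genes. The tested pore and transport genes were also longer, with a median of 5176 bases against 3580 for all tested genes. The 4426 tested genes between their length quartiles had a median log2 fold change of 0.02, with 11.5% higher and 13.7% lower. The part of abundance and length in the calls was not tested beyond the setting that removes a length trend, which also rescales each library.

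**Figure D4:**
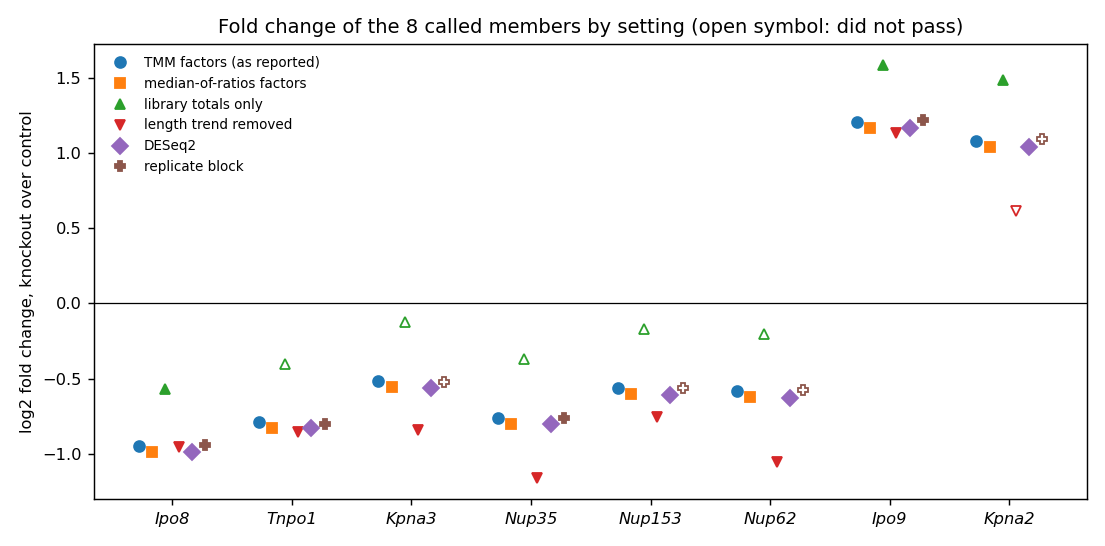
Log2 fold changes (knockout over control) of the 8 called genes under 6 settings, filled where the adjusted p is under 0.05 and open where it is not. Values for library totals only lie above the others in each gene, and Ipo8 is filled under every setting, from -0.99 with median-of-ratios factors to -0.57 with library totals only.

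The partners of these genes that carry other names were described from 5 lists. Of 10 further pore genes, 3 fell and none rose by edgeR, while with totals only 1 was lower and 1 higher. At an unadjusted p under 0.05 there were 6 of the 10, against 4199 of all 11066 tested genes. DESeq2 had 4 lower, beside 1834 of the 13569 genes it tested. Ndc1, a membrane protein that seats the pore in the envelope, had 85, 68.1, 77.0 and 89.8 CPM in knockout, against 162, 156, 131 and 192 CPM in control libraries, with no overlap (log2 fold change -1.0 ± 0.18 SE, adjusted p = 0.002303 in edgeR). It fell under all 16 alternatives. Ranbp2, the large cytoplasmic filament protein, averaged 55.1 ± 12.1 CPM in knockout, against 106 ± 34.6 CPM in control oocytes (SD, n = 4 each; log2 fold change -0.94, adjusted p = 0.01963 in edgeR). It missed the threshold without knockout replicate 1, 2 or 4 (adjusted p from 0.0513 to 0.0711) and with totals only (0.116). Seh1l, an outer ring subunit, stood at a log2 fold change of -0.59 (edgeR's adjusted p = 0.03164), which was lost when any of 5 libraries was left out (knockout replicate 1, 2 or 3 or control replicate 1 or 4; adjusted p from 0.0540 to 0.0963), with totals only (0.471) or with a minimum of 10 CPM in 4 libraries (0.0599). Gle1 did not pass, at a log2 fold change of -0.52 (adjusted p = 0.0523 in edgeR), though its groups did not overlap. The basket scaffold Tpr and the shared coat subunit Sec13 had log2 fold changes of -0.09 and -0.03. Over the whole pore, members and list together, 6 of 31 tested genes fell and none rose by edgeR, beside 12.2% lower and 13.6% higher among all tested genes. The same 31 had 1 lower and 3 higher with totals only (4.61% and 21.5% of all tested genes), and 13 lower and none higher with the length trend removed (21.1% and 9.29%).

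Of 9 tested genes of the Ran cycle, 5 rose and none fell by edgeR, beside 13.6% higher and 12.2% lower among all tested genes. At an unadjusted p under 0.05 there were 6 of the 9, against 4199 of all 11066 tested genes. DESeq2 also had 5 higher and none lower, beside 2148 higher and 1834 lower of the 13569 genes it tested. Totals only gave the same counts for the list, beside 21.5% higher and 4.61% lower among all tested genes. Ranbp1, which helps release Ran from export complexes, had 40.1, 35.9, 30.7 and 42.9 CPM in knockout, against 3.08, 3.51, 4.04 and 3.70 CPM in control libraries. The groups were far apart, with a log2 fold change of 3.38 ± 0.29 (SE, edgeR's adjusted p = 3.415e-05). Rangap1, which switches on GTP hydrolysis by Ran, averaged 17.2 ± 7.30 CPM in knockout, against 4.11 ± 1.35 CPM in control oocytes (SD, n = 4 each; log2 fold change 2.06). Senp2, a SUMO protease found at the pore, had a log2 fold change of 1.70, and Ranbp3, a cofactor of Xpo1, one of 1.27. Ran itself had 55.7, 99.5, 62.7 and 67.0 CPM in knockout, against 38.1, 48.2, 40.2 and 46.8 CPM in control libraries, with no overlap. Its log2 fold change of 0.72 (adjusted p = 0.03735 in edgeR) held in 6 of 16 alternatives. It was 0.52 without knockout replicate 2 (adjusted p = 0.14) and 0.22 with the length trend removed (adjusted p = 0.511), and the adjusted p was 0.0523 to 0.0838 without knockout replicate 3 or 4 or control replicate 1, 2 or 3. Rcc1, the exchange factor that loads Ran with GTP, had 20.6 ± 4.94 CPM in knockout, against 29.9 ± 9.15 CPM in control oocytes and did not pass (adjusted p = 0.223 in edgeR). With the length trend removed, 4 genes of this list rose and 2 fell, beside 9.29% higher and 21.1% lower among all tested genes.

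The list for mRNA export and its complexes split: 7 of 22 tested genes rose and 4 fell, or 8 and 1 with totals only, beside 13.6% higher and 12.2% lower among all tested genes (21.5% and 4.61% with totals only). Cetn2, a centrin that is also part of the export complex at the basket, averaged 160 ± 32.3 CPM in knockout, against 15.4 ± 7.31 CPM in control oocytes (SD, n = 4 each; log2 fold change 3.39 ± 0.32 SE, adjusted p = 5.282e-05 in edgeR). The helicase Ddx39b, the adaptor Alyref and the THO subunits Thoc5 and Thoc6, which load export factors onto mRNA, had log2 fold changes of 2.91, 1.81, 2.62 and 1.53. Poldip3 and Nxt2 had 1.03 and 0.98. Eny2, a subunit shared with a chromatin complex, had 296 ± 45.3 CPM in knockout, against 552 ± 116 CPM in control oocytes (log2 fold change -0.90), and Mcm3ap, the scaffold of the same export complex, had a log2 fold change of -0.88. Cetn3 (-0.77) and Sarnp (-0.93) also fell, but these and other calls of the list hung on single libraries. Sarnp did not pass without any 1 of the 4 knockout libraries or control replicate 2, 3 or 4 (adjusted p from 0.0577 to 0.12), nor Mcm3ap without any 1 of the 4 knockout libraries or control replicate 2 or 3 (0.0660 to 0.113). Cetn3 did not pass without knockout replicate 1, 2 or 4 or control replicate 1 or 4 (0.0702 to 0.107), nor Nxt2 without knockout replicate 2, 3 or 4 or control replicate 3 (0.0517 to 0.0723). The main export receptor Nxf1 had 12.7 ± 3.67 CPM in knockout, against 6.24 ± 1.91 CPM in control oocytes and did not pass (adjusted p = 0.0901 in edgeR).

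Of 11 tested genes of the nuclear envelope, 2 rose and 1 fell, or 2 and 0 with totals only, against the same shares of all tested genes. Lmna, which encodes lamins A and C, had 39.5 ± 8.70 CPM in knockout, against 9.89 ± 1.77 CPM in control oocytes (SD, n = 4 each; log2 fold change 2.00 ± 0.28 SE, adjusted p = 0.0005372 in edgeR). Banf1, which bridges chromatin and envelope, had a log2 fold change of 1.04. Sun1, a membrane protein that links the lamina to the cytoskeleton, had 94.8 ± 14.3 CPM in knockout, against 160 ± 8.52 CPM in control oocytes (log2 fold change -0.75, adjusted p = 0.007112 in edgeR, lost with totals only at 0.115). Of 4 further tested karyopherins, among them Cse1l, which returns importin alpha to the cytoplasm, none was called by edgeR or DESeq2, with 0 at an unadjusted p under 0.05. In all, 14 of the 56 tested genes of these lists rose and 8 fell, beside 13.6% higher and 12.2% lower among all tested genes, and nothing particular to the lists is read from these counts. With totals only, 16 rose and 2 fell, and with the length trend removed, 12 rose and 17 fell. Without knockout replicate 1 or 2, 3 fell, and without knockout replicate 4 or control replicate 4, 5 fell.

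**Figure D5:**
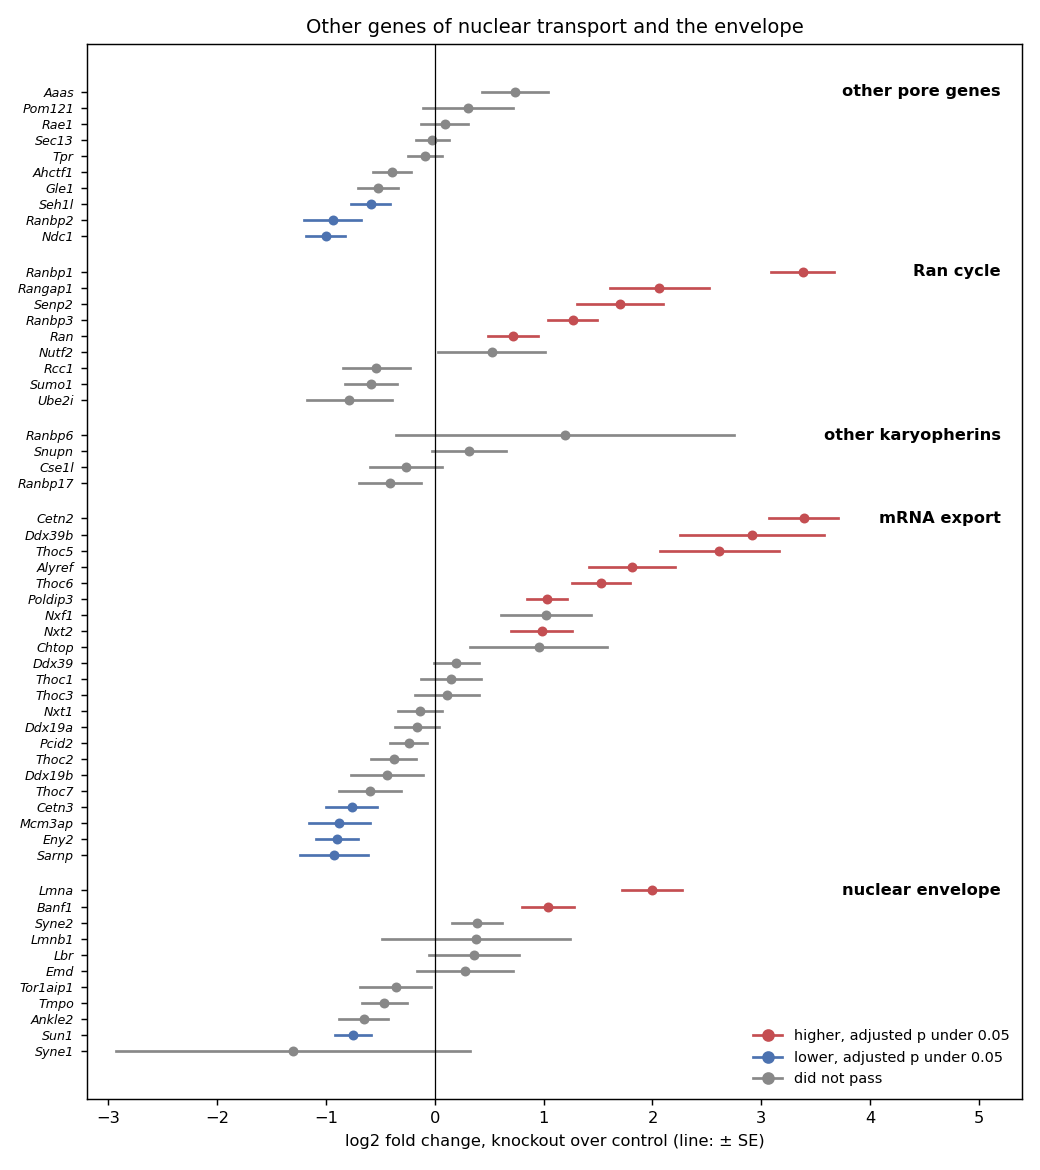
Log2 fold changes (knockout over control, line ± SE) of the tested genes of the 5 lists, red for genes that rose, blue for genes that fell and grey for genes that did not pass edgeR's test at an adjusted p under 0.05. Ranbp1 (3.38) and Cetn2 (3.39) lie farthest to the right, and the blue points of the other pore genes lie between -1.0 and -0.59.

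The authors' deposited table lists 7 of the 45 genes among its 2709. Its shrunken log2 fold changes (knockout over control) were -0.98 for Ipo8, -0.82 for Tnpo1, -0.80 for Nup35, -0.62 for Nup62, -0.60 for Nup153, -0.55 for Kpna3 and 1.12 for Ipo9. No gene in the authors' deposited table has an adjusted p above 0.009996, so it stops at a stricter threshold than the one used here. Kpna2, which it does not list, had an adjusted p of 0.0156 with DESeq2.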

How the data were processed

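The deposited counts per gene of 8 single-oocyte libraries were analysed. Per the labels' protocols, RNA was amplified with the SMARTer Ultra Low kit and sequenced as 75-bp single reads. The kit does not mark strand and carries no molecular identifiers, so counting floors (3 counts, 0.222 to 0.316 CPM) cover counting error only, and reads of a gene and of one overlapping it on the other strand are mixed. Values are relative within a library. Per the submitters' processing notes, the tools were GSNAP, featureCounts 1.4.4 and DESeq2 1.3.79 on build mm10, and per the file headers the counts were made on Ensembl release 69. The authors' deposited comparison table holds log2 fold changes, a standard error and a test statistic (each a score), p-values, RPKM values and a normalized signal for each library. Only its fold changes were set beside the results.

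The pore and transport genes, the 5 pathway lists, the markers, the tests and the alternatives were chosen with earlier results of these data known. The 8 libraries entered a single fit on genotype in edgeR 4.0.16 (R 4.3.3), with filterByExpr, TMM factors and the quasi-likelihood F test. Benjamini-Hochberg adjustment ran over 11066 genes, with a threshold of 0.05. CPM uses totals multiplied by TMM factors, 1.07 to 1.22 in knockout and 0.800 to 0.947 in control libraries. Levels per length divide it by the kilobases of the deposited gene length. Standard errors (SE) were derived from the fold change and F. Simulated counts were used to test the code. Named were all called genes, in each role with none the tested gene with the smallest p, the highest level per length in each class, called genes of the lists, genes under the filter and Setd1b; other genes are given for their role. Alternatives were median-of-ratios factors, library totals only, DESeq2 1.42.0, no filter, a minimum of 10 CPM in 4 libraries, the replicate number as a block, a length trend removed per library (loess, span 0.5), each library left out, and an adjusted p of 0.01. The length trend was removed uncentred, together with each library's mean level over genes.

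Gene symbols came from a name table for 35449 of 37224 identifiers; the authors' table named 10 more and 1765 have no symbol. In the list for mRNA export, Zc3h11a matched no gene. Shared 75-base stretches were searched in GENCODE M21 transcripts. Besides Kpna2 and Nup35, the largest shares were 52.5% for Nupl1 and 50.4% for Ipo4. Of these, 47.8% for Nupl1 lay in Gm49336 and 50.4% for Ipo4 in Gm49378, genes that were not among those counted. For Nup62 the search gave no value. Of its exon bases, 4.0% overlap Atf5 on the opposite strand or Il4i1 on the same strand. Pairs of libraries in a group had correlations of 0.969 to 0.980 (log2 scale) and differed beyond sampling noise, so each counts once. Whether the oocytes of a group had different donor females is not given, so p-values measure the spread between these libraries.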

Additional observations from a re-analysis of the deposited data

Results flagged for a closer look

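In 4 of 80 groups of 4 libraries, 1 library lay far from the other 3 (about 1 in 20 groups is marked by chance). Ipo9 was highest in knockout replicate 1, at 47.7 CPM, beside 27.7 to 31.0 CPM in the other knockout libraries. Ipo4 was lowest in knockout replicate 3, at 1.26 CPM, beside 6.88 to 7.99 CPM in the others. Nup54 was highest in control replicate 1, at 271 CPM, beside 174 to 183 CPM in the other control libraries. Nup133 was highest in control replicate 4, at 5.8 CPM, beside 1.15 to 1.44 CPM in the others.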

How the results depend on the processing

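Of the pore and transport genes, 2 were higher and 6 lower. With library totals only the counts were 6 higher and 1 lower, with a length trend removed 1 and 11, and at an adjusted p of 0.01 they were 0 and 3. Leaving out 1 library gave 1 to 3 higher and 3 to 7 lower. The 5 lists held 14 higher and 8 lower genes, and the lower count was 2 with totals only, 17 with the length trend removed, 3 at an adjusted p of 0.01 and 3 to 9 without 1 library; the higher count was 12 to 16 over all alternatives. With the replicate number as a block, 1 pore or transport gene was higher and 3 lower, and 3 list genes were lower; Kpna2, Kpna3, Nup62 and Nup153 lost their calls (adjusted p 0.0983, 0.0814, 0.123 and 0.0641 in edgeR). Same-numbered libraries did not deviate together (correlations -0.117 to -0.021), so the number was not read as a pairing. The log2 fold change of Xpo1, -0.04, was 0.39 with totals only, 0.095 with at least 10 CPM in 4 libraries, 0.078 with the replicate block and -0.23 to 0.32 without 1 library, the highest without control replicate 4. The summed levels of the pore (0.082) and importin alpha (0.16) changed sign with totals only. The cause of these changes was not tested. Scarce genes limit the reading: Nup133, Nup210, Ipo4, Ipo13, Tnpo2, Nupl2 and Xpo5 averaged under 10 CPM in both groups, and their intervals are wide.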
